A study of Homo sapiens with 4 samples.

Results

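Plasminogen activators, their cell-surface receptor and a group of serpins were examined as 8 genes, PLAU, PLAUR, PLAT, SERPINE2, SERPINB2, SERPINB5, SERPINB8 and SERPINF1. They were chosen by gene symbol from a table of 65988 gene identifiers. The cells were SKOV3, an established human ovarian carcinoma line known for extra copies of ERBB2. Both wild-type libraries came from cisplatin-susceptible cells. The 2 cisplatin-resistant libraries came from a line derived from them by 6 cycles over 5 months, each of 4 hours in cisplatin at rising concentration and 3 weeks without it. Both kinds of cells were harvested in log growth with no drug, and no line kept as long without cisplatin was analysed here. The labels describe a single selection, so the 2 resistant libraries are samples of 1 selected line, and drug resistance and divergence of the line cannot be told apart.

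Urokinase (PLAU) and tissue plasminogen activator (PLAT) are serine proteases that cut plasminogen into plasmin, a broad protease that dissolves fibrin and parts of the extracellular matrix. The urokinase receptor PLAUR, held on the membrane by a lipid anchor, concentrates urokinase at the cell surface and is known from carcinoma cells that invade. Serpins are protease inhibitors that trap their target with an exposed loop. SERPINB2 inhibits the plasminogen activators, SERPINE2 inhibits thrombin and urokinase, and SERPINB5 and SERPINF1 have the serpin fold without acting as classical protease inhibitors.

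Library totals ran from 43658695 to 53502349 counts in wild-type cells and from 65259794 to 79592903 in resistant cells, and 1 CPM (reads scaled to a common library size with TMM factors) stands for 42.6 to 83.1 reads. Levels below are in CPM, as mean ± SD of n = 2 libraries. Of the carcinoma markers, KRT19 was at 144 CPM in both groups, and ERBB2, KRT8 and KRT18 fell to 2457, 393 and 149.9 CPM in resistant cells. KRT7 fell from 365 to 3.21 CPM, EPCAM from 31.6 to 3.59 and CDH1 from 11.9 to 0.258, and MUC16 fell as well. The 10 carcinoma markers summed to between 6595 and 7253 CPM in wild-type and between 2830 and 3484 CPM in resistant libraries. ERBB2 alone was at 5248 and 5769 CPM in wild-type and 2840.5 and 2073.9 CPM in resistant replicates 1 and 2, most of each sum. By gene, 1 marker was called higher and 7 lower. The marker called higher was WT1, which rose from 0.853 to 2.02 CPM (log2 fold change 1.24, edgeR adjusted p = 0.0111). PAX8 went from 3.14 to 4.66 CPM without a call (log2 fold change 0.56, edgeR adjusted p = 0.082), and other genes cover 95.7% of its exonic bases. The 6 fibroblast markers summed to between 27.3 and 36.7 CPM in wild-type and between 53.0 and 60.4 CPM in resistant libraries, with DCN, LUM and COL1A1 higher and COL1A2 lower. COL1A1 lost its call without wild-type replicate 1 (log2 fold change 0.46, edgeR adjusted p = 0.102). The 4 leukocyte markers stayed under 1 CPM in sum in every library, with PTPRC at 0 in wild-type and at 6 and 27 reads in resistant libraries, and 2 of the 3 endothelial markers (PECAM1 and VWF) fell. The part of these shifts in the results below was not tested. In bulk RNA, fewer cells of a type and less RNA per cell cannot be told apart.

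Of the 8 genes, 4 rose in resistant cells and none fell. SERPINB5 (maspin), an epithelial serpin first described as a tumour suppressor, rose most, followed by the receptor PLAUR, and PLAT and SERPINE2 rose by smaller amounts. PLAU, SERPINB8 and SERPINF1 were tested and not called. SERPINB2 was listed at 0 in all libraries and is not measured, as is a second identifier with the symbol SERPINF1 that has no position in the annotation used. A call is a Benjamini-Hochberg adjusted p under 0.05 in edgeR's quasi-likelihood test over the 18602 tested genes. Called genes made up 45.3% of those tested, 22.1% higher and 23.2% lower, so a call is common here. The CPM of the groups did not overlap for 6 of the 7 tested genes, against 73.6% of all tested genes. Their median log2 fold change (resistant over wild type) was 0.52, against 0.003 over all tested genes. The members and the lists below were chosen with earlier results of these data known, so such comparisons describe the genes and do not test them. With 2 against 2 libraries an exact permutation test of 1 gene cannot go below p = 0.333, so the model across genes was used.

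**Figure D1:**
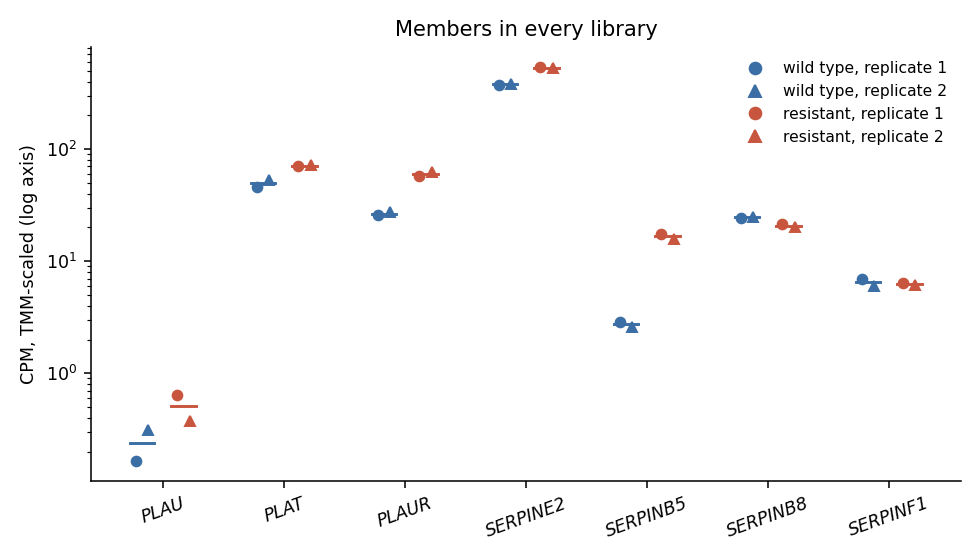
CPM of the 7 members with reads in each library, on a log axis; circles and triangles are replicates 1 and 2, bars the group means (n = 2). The resistant libraries lie above the wild-type libraries for PLAT, PLAUR, SERPINE2 and SERPINB5, and the SERPINF1 values of the 2 groups overlap.

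The receptor PLAUR lies on chromosome 19 (43646095 to 43670547, minus strand, GRCh38), and none of its exonic bases lies within another gene. Its reads numbered 1103 and 1403 in wild-type replicates 1 and 2, and 3799 and 5207 in resistant replicates 1 and 2. Scaled for depth this is 25.9 and 27.3 CPM against 57.0 and 62.6 CPM. Both resistant libraries were above both wild-type libraries, and the spread within a group was small beside the gap. PLAUR rose from 26.6 ± 1.01 to 59.8 ± 3.98 CPM, a log2 fold change of 1.17 ± 0.13 (SE) or 2.25-fold, with an edgeR adjusted p of 2.49e-05. Over 10 alternative analyses its log2 fold change stayed between 1.11 and 1.26.

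SERPINB5 lies on chromosome 18 (63476761 to 63505085, plus strand), at one end of a cluster of clade B serpin genes. It had 123 and 132 reads in wild-type replicates 1 and 2 and 1165 and 1323 reads in resistant replicates 1 and 2. These are 2.89 and 2.57 CPM against 17.5 and 15.9 CPM. The replicates of each group were close and the groups far apart. SERPINB5 rose 6.12-fold, from 2.73 ± 0.224 to 16.7 ± 1.11 CPM, with a log2 fold change of 2.61 ± 0.18 and an edgeR adjusted p of 7.76e-07. The tested protein-coding genes with the most similar pattern over the 4 libraries were DPYSL3, C3orf67 and NDST3, whose centred log2 CPM differed from that of SERPINB5 by a root mean square of 0.0369, 0.0461 and 0.0532. Their log2 fold changes were 2.59, 2.70 and 2.64. With only 4 libraries in 2 groups, such a match is mostly a like fold change and does not show shared regulation.

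The 250 bases before the RefSeq start of 4 members are shown because PLAUR and SERPINB5 rose, SERPINE2 rose less and SERPINB8 from the same chromosome 18 cluster was not called. They are printed 5′ to 3′ on the gene's strand from the RefSeq promoter table (GRCh38.p14), which matched 6 of the 8 members. Capitals mark matches to AP-1 (TGANTCA), the GC box (GGGCGG), the CRE (TGACGTCA) or the TATA box (TATAAA), searched on both strands. The regions are chr19:43670170-43670419 (minus strand), chr18:63476708-63476957 (plus), chr2:224031479-224031728 (minus) and chr18:63969831-63970080 (plus). GENCODE release 29 also has transcripts of all 4 genes that start further upstream.
PLAUR: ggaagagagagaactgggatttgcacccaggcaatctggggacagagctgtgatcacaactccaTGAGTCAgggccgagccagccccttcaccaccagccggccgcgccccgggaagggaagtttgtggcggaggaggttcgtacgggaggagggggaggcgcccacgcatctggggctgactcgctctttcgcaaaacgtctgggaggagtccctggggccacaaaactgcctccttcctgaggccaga
SERPINB5: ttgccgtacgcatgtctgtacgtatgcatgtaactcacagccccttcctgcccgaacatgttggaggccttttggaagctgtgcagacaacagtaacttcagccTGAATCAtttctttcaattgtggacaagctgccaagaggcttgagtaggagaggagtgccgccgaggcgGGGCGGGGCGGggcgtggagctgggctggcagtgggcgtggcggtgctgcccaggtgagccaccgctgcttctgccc
SERPINE2: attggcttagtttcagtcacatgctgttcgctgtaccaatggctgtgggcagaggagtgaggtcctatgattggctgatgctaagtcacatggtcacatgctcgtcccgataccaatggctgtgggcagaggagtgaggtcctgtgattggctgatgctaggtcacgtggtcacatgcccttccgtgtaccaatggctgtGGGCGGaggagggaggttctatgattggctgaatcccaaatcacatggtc
SERPINB8: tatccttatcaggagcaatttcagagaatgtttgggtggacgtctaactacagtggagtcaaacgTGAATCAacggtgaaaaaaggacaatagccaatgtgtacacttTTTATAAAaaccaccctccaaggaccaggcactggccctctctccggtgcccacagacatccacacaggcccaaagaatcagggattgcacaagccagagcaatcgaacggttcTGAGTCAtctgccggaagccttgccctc

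The AP-1 letters stand 186 to 180 bases before the PLAUR start and 146 to 140 bases before the SERPINB5 start. SERPINB8 has them at 185 to 179 and at 28 to 22 bases before its start. Of the 6 members matched, 4 hold TGANTCA (PLAUR, SERPINB5, SERPINB8 and SERPINB2), and 6.57% of all 35114 promoter windows of the same length do. SERPINE2 has 1 GC box and SERPINB5 has 2 that overlap by 1 base, a motif in 42.6% of all windows. SERPINB8 also holds TATAAA on both strands in overlapping matches, 142 to 135 bases before its start (10.7% of windows), and no CRE was found in any of the 6 (1.65% of windows). The AP-1 letters occur both before genes that rose and before SERPINB8, which was not called. A match describes the letters of the window and says nothing of binding.

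PLAT lies on chromosome 8 (42175233 to 42207724). It had 45.6 and 53.5 CPM in wild-type replicates 1 and 2, and 71.1 and 71.5 CPM in resistant replicates 1 and 2. Groups did not overlap, and the wild-type replicates differed more than the resistant ones. PLAT rose from 49.5 ± 5.65 to 71.3 ± 0.283 CPM, 1.44-fold (log2 fold change 0.52 ± 0.12, edgeR adjusted p = 0.00527). The call was lost without wild-type replicate 1, the lower of the wild-type libraries (0.42, edgeR adjusted p = 0.083).

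PLAU lies on chromosome 10 (73909177 to 73917497, plus strand) and had 7 and 16 reads in wild-type replicates 1 and 2 against 43 and 31 in resistant replicates 1 and 2. Its levels were 0.164 and 0.312 CPM in wild-type and 0.645 and 0.373 CPM in resistant cells. The groups did not overlap, but the gap between the nearest libraries was smaller than the spread within either group. The log2 fold change of PLAU was 1.07 ± 0.65 (edgeR adjusted p = 0.207), with a range of 2 SE either way from -0.24 to 2.37, and it ran from 0.64 without resistant replicate 1 to 1.61 without wild-type replicate 2.

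The count of PLAU may cover little of the gene. The opposite-strand gene C10orf55 spans 96% of the exonic bases of PLAU and leaves 118 of 2950 outside. C10orf55 itself had 8 and 5 reads in wild-type and 13 and 26 reads in resistant replicates. Of the 679 protein-coding genes with at least 90% but not all of their exonic bases inside another gene, the median had 54 reads over the 4 libraries. The median was 1969 reads for the 9449 protein-coding genes with no exonic base inside another gene. Genes with no reads in any library made up 16.3% of the former and 14.1% of the latter. Single genes of the former kind differed widely, with 120298 reads for CD59, 3559 for HIF1A, 991 for PAX8 and 2 for ITGB3. What else sets these kinds of genes apart was not tested. How the authors' counting treated reads in overlaps is not given in the sources used here, so the level of urokinase mRNA in these cells cannot be read from this value.

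SERPINE2 (protease nexin 1), a secreted inhibitor of thrombin and urokinase, was the most abundant per length of the members with reads, leaving out PLAU. It lies on chromosome 2 (223975112 to 224039319, minus strand) and had 375 and 379 CPM in wild-type replicates 1 and 2 and 539 and 530 CPM in resistant replicates 1 and 2. The replicates of a group lay close together and the groups did not overlap. SERPINE2 rose from 377 ± 3.10 to 535 ± 6.72 CPM, 1.42-fold (0.50 ± 0.11 on the log2 scale, edgeR adjusted p = 0.00252).

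SERPINB8, an intracellular serpin that inhibits furin and other serine proteases, lies at the other end of the chromosome 18 cluster (63969925 to 64019779), and 15.2% of its exonic bases lie within other genes. It had 24.4 and 24.8 CPM in wild-type replicates and 21.5 and 20.1 CPM in resistant replicates, a small gap without overlap. Its log2 fold change was -0.24 ± 0.14 (edgeR adjusted p = 0.17). SERPINF1 (pigment epithelium-derived factor), a secreted inhibitor of angiogenesis on chromosome 17 (1761959 to 1777574), had 6.90 and 6.06 CPM in wild-type and 6.36 and 6.11 CPM in resistant replicates. Its groups overlapped and the log2 fold change was -0.05 ± 0.18 (edgeR adjusted p = 0.832). The range of 2 SE either way was -0.51 to 0.03 for SERPINB8 and -0.42 to 0.31 for SERPINF1, which leaves room for moderate differences.

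Per length, as CPM per kilobase of merged exons and leaving out PLAU, SERPINE2 was highest in wild-type cells at 42.4 ± 0.349. PLAT followed at 7.49 ± 0.854, PLAUR at 5.97 ± 0.227 and SERPINB8 at 4.19 ± 0.0405, with SERPINF1 at 2.11 ± 0.195 and SERPINB5 lowest at 0.693 ± 0.0569. In resistant cells PLAUR (13.4 ± 0.892) stood above PLAT (10.8 ± 0.0428), and SERPINB5 (4.24 ± 0.281) above SERPINB8 (3.54 ± 0.158). No 2 members next to each other in either order had overlapping libraries, although n = 2 gives the order no test. Merged exons count every annotated isoform, so these levels are approximate.

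Among 47 further genes of plasminogen activation, 33 were tested, 10 rose and 9 fell, or 57.6% called against 45.3% of all tested genes. Their median log2 fold change was 0.14. These genes moved in both directions within most roles, as the plot of the pathway by role shows.

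**Figure D2:**
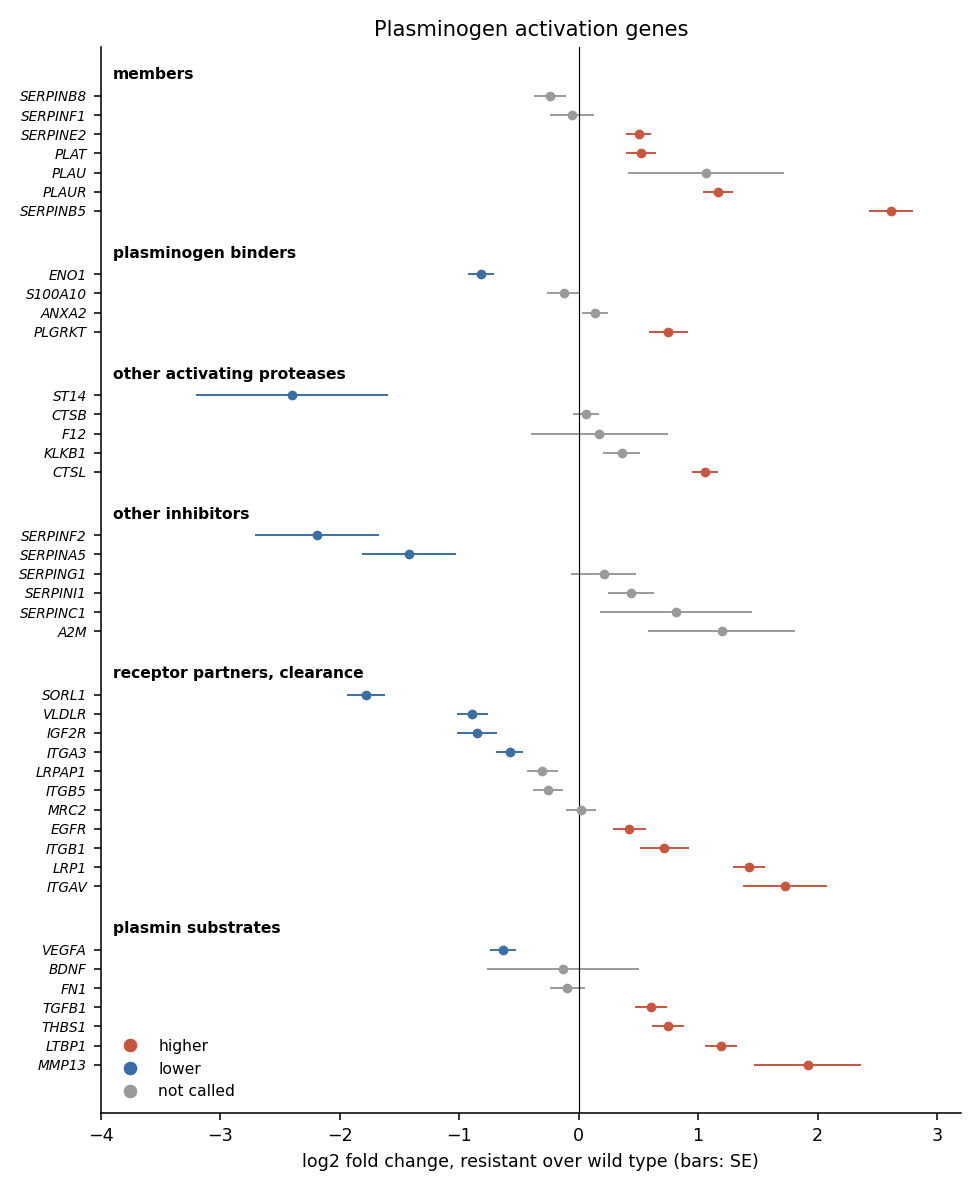
Log2 fold change (resistant over wild type) with SE for the 7 tested members and 33 other tested genes, by role; red passed the test as higher, blue as lower, grey did not pass. SERPINB5 and PLAUR lie highest among the members that passed, at 2.61 and 1.17.

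SERPINF2, the plasma inhibitor of plasmin, fell by 2.19 ± 0.52 from 1.00 ± 0.0419 CPM (edgeR adjusted p = 0.00526). SERPINA5, the protein C inhibitor, fell by 1.42 ± 0.39 from 1.43 ± 0.0671 CPM (edgeR adjusted p = 0.0123). Both rest on few reads, 44 and 50 in wild-type and 13 and 20 in resistant replicates for SERPINF2. SERPINA5 had 59 and 76 against 36 and 44, with 29.6% of its exonic bases inside other genes. Among the inhibitors listed beside the 8 genes, 6 were tested, of which these 2 fell and 4 were not called, while CPB2 and TFPI2 were listed at 0 and lie wholly within other genes.

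Plasminogen itself (PLG) had 13 and 1 reads in wild-type and 1 and 0 reads in resistant replicates and was not tested. Of the 4 tested binders of plasminogen, the receptor PLGRKT rose from 11.8 ± 1.84 to 19.8 ± 0.888 CPM and ENO1, a glycolytic enzyme also found at the cell surface, fell by 0.82 ± 0.11. The annexin ANXA2 (0.14 ± 0.11, edgeR adjusted p = 0.323) and its partner S100A10 (-0.13 ± 0.14, edgeR adjusted p = 0.484) were not called. S100A10 was called lower without resistant replicate 2 (-0.33, edgeR adjusted p = 0.016). ENO1 and ANXA2 have processed copies elsewhere in the genome, which makes their counts less certain.

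Of 5 other proteases tested that can activate prourokinase or plasminogen, the lysosomal protease CTSL rose from 176 ± 2.02 to 366 ± 11.7 CPM (1.06 ± 0.11). CTSB, at 1735 ± 31.9 CPM in wild-type cells, was not called (0.06 ± 0.11, edgeR adjusted p = 0.692), nor were KLKB1 and F12. ST14 (matriptase), a membrane protease of epithelia, had 20 and 41 reads in wild-type replicates and 14 and 3 reads in resistant replicates 1 and 2. ST14 fell by 2.40 ± 0.80 (edgeR adjusted p = 0.03). That call was lost without wild-type replicate 2 (-1.96, edgeR adjusted p = 0.12) or resistant replicate 2 (-1.58, edgeR adjusted p = 0.19), and the log2 fold change was -4.06 without resistant replicate 1.

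Among 11 tested partners and clearance receptors of the urokinase receptor, 4 rose and 4 fell. LRP1, which takes up complexes of urokinase, inhibitor and receptor, rose from 69.1 ± 7.32 to 186 ± 23.9 CPM (1.43 ± 0.13, edgeR adjusted p = 7.67e-06). The related receptors SORL1 and VLDLR fell by 1.78 ± 0.16 and 0.89 ± 0.13. The vitronectin receptor chain ITGAV rose from 451 and 582 reads in wild-type replicates to 3574 and 1587 reads in resistant replicates 1 and 2, or 36.4 ± 24.4 CPM. Its log2 fold change of 1.73 was 0.81 without resistant replicate 1 and 2.30 without replicate 2, and other genes cover 82.9% of its exonic bases. The collagen receptor MRC2 (0.02 ± 0.12, edgeR adjusted p = 0.917) was not called, and vitronectin (VTN) was listed at 0 and lies wholly within other genes.

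Genes of proteins that plasmin cuts or releases were higher where they changed, with 1 exception. Of 7 tested, 4 rose and 1 (VEGFA, by 0.63 ± 0.11) fell, with a median log2 fold change of 0.61. LTBP1, which stores latent TGF-beta in the matrix, rose by 1.19 ± 0.13 and the collagenase MMP13 by 1.92 ± 0.44. MMP13 had 11 and 31 reads in wild-type replicates 1 and 2, and its log2 fold change was 1.46 without replicate 1 and 2.68 without replicate 2. THBS1 rose by 0.75 ± 0.13, but other genes cover 79.2% of its exonic bases. Fibronectin (FN1) was at 6274.5 ± 381 and 5880 ± 1294 CPM and was not called.

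The urokinase receptor belongs to the Ly6/PLAUR family of small cysteine-rich proteins, and 3 of 10 other tested family genes rose while 6 fell. LYPD3, which lies near PLAUR on chromosome 19, rose from 3.05 ± 0.667 to 8.21 ± 0.921 CPM (1.42 ± 0.22). CD177, a neutrophil surface protein gene from the same stretch with 56.2% of exonic bases inside other genes, fell by 1.90 ± 0.34. LYPD5 there, named after its values were seen, fell by 0.77 ± 0.26. LYPD6, on chromosome 2, rose by 1.23 ± 0.18 while its relative LYPD6B fell by 4.62 ± 0.47, from 97 and 107 reads to 5 and 8.

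Of 28 protein-coding serpin genes described beside the 8, 15 were tested, of which 9 fell and 6 were not called, against 23.2% lower over all tested genes. Their median log2 fold change was -0.83. SERPINA1, the plasma inhibitor of neutrophil elastase, fell from 28.5 ± 4.73 to 6.59 ± 0.696 CPM (-2.11 ± 0.17, edgeR adjusted p = 2.82e-06). The intracellular clade B genes on chromosome 6, named here after their values were seen, fell by 0.37 ± 0.11 (SERPINB6), 0.47 ± 0.11 (SERPINB1) and 0.86 ± 0.12 (SERPINB9, the granzyme B inhibitor). SERPINB8 shares this clade and was not called.

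**Figure D3:**
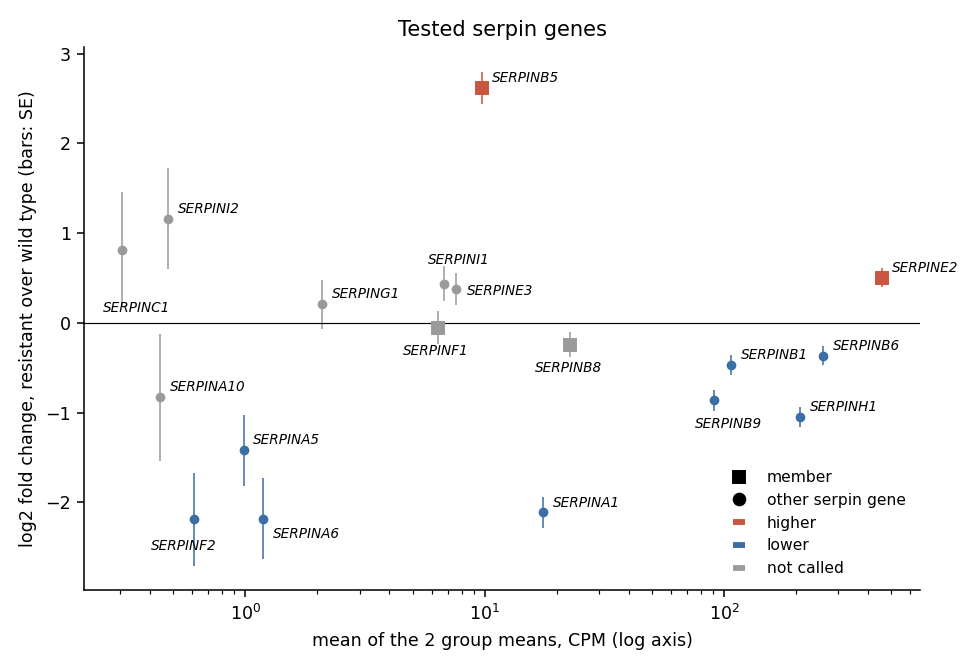
Log2 fold change with SE against mean CPM (log axis) for the tested serpin genes described here; squares are members, circles other serpins, and SERPINA12, with no reads in resistant cells, is left out. SERPINB5 and SERPINE2 passed as higher and lie at 2.61 and 0.50.

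The clade B cluster on chromosome 18, from SERPINB5 to SERPINB8, spans 543 kb and 11 protein-coding genes. Of these, 6 had no reads in any library, SERPINB2 among them, and 2 (SERPINB7 and SERPINB11) had 3 reads and 1 read in all. The epithelial serpins SERPINB12 and SERPINB13 were at 0 although no exonic base of either lies within another gene. For SERPINB2, 53.2% of exonic bases lie within the neighbouring SERPINB10, also at 0, so its 0 is not read as absence. Between the ends HMSD, which overlaps SERPINB8, was the only protein-coding gene tested, with 9 and 50 reads in wild-type and 23 and 58 in resistant replicates (-0.20 ± 0.67, edgeR adjusted p = 0.837).

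Genes around the 4 members that rose were described by the tested genes with a midpoint within 500 kb. Around PLAUR, 2 of 37 neighbours rose and 13 fell, with a median log2 fold change of -0.19 against 1.17 for PLAUR. LYPD3 was among the 2 that rose, and the largest changes there were falls in PSG9, a pregnancy-specific glycoprotein gene with near-identical relatives, the pseudogene CD177P1 and AC005392.2 (log2 fold changes -4.09, -3.898 and -1.995). Around SERPINB5, 1 of 5 (the sphingolipid enzyme gene KDSR, 0.64 ± 0.12) rose and none fell, with a median of 0.24 against 2.61. That median was 0.64 over 3 genes within 250 kb and -0.003 over 8 genes within 1000 kb. Both members lay above the medians around them, and SERPINB5 lay above each tested neighbour, the highest of which was at 0.84. Around PLAUR the highest neighbour was at 1.63.

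PLAT and SERPINE2 were close to the medians of their neighbours, although single neighbours differed widely. Log2 fold changes ran from -0.36 to 4.03 around PLAT and from -0.06 to 1.44 around SERPINE2. Around PLAT, 6 of 9 neighbours rose and 1 fell, and their median of 0.56 was close to the 0.52 of PLAT. Its neighbours AP3M2, an adaptor complex gene, and ANK1, an ankyrin gene, rose by 1.06 ± 0.12 and 2.25 ± 0.14. AC083973.1 rose by 4.03 ± 1.23, but only from 0.0097 ± 0.0138 to 0.203 ± 0.0534 CPM, so its fold change rests on very few reads. Around SERPINE2, 4 of 5 rose and none fell, with a median of 0.48 against 0.50, and SCG2, a granule protein gene, rose by 1.16 ± 0.20, as did WDFY1 and AC012512.1 (0.48 and 1.44). Whether a shift of the chromosome segment has a part in these rises was not tested.

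**Figure D4:**
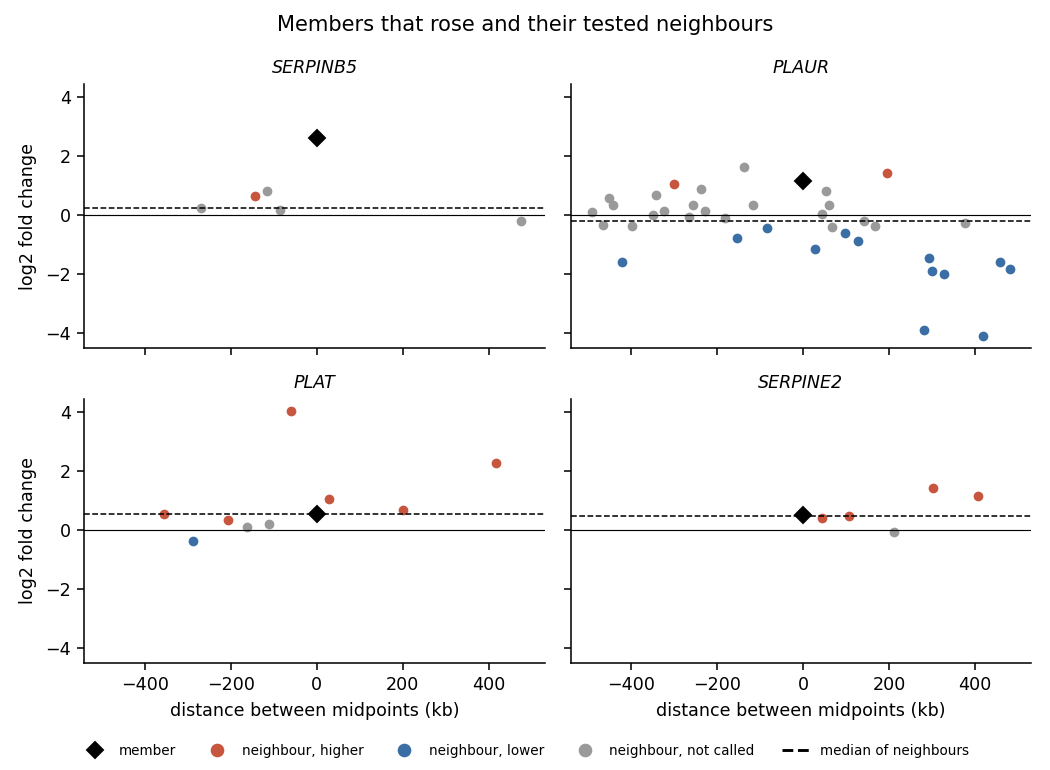
Log2 fold change of tested genes within 500 kb of 4 members that rose, against distance from the member's midpoint in kb along its strand; diamonds are the members, dashed lines the medians of the neighbours. SERPINB5 (2.61) and PLAUR (1.17) lie above their dashed lines at 0.24 and -0.19, and PLAT and SERPINE2 lie close to theirs.

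Of 16 tested transcription factor genes known to act on activator and serpin promoters, 4 rose and 7 fell, with a median log2 fold change of -0.21. The AP-1 subunit FOSL1 rose from 64.8 ± 6.42 to 209 ± 45.8 CPM (1.69 ± 0.15), while the subunits FOS and FOSL2 fell by 1.99 ± 0.23 and 1.20 ± 0.11. TP63, a p53 relative that marks basal epithelia, rose from 48 and 86 reads to 658 and 735 reads (2.73 ± 0.24). JUN and JUND fell by 0.42 ± 0.14 and 0.91 ± 0.17, so that FOSL1 rose and 4 other AP-1 subunits fell. FOSB and JUNB were listed at 0 and lie wholly within other genes.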

How the data were processed

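RNA was measured in 4 SKOV3 libraries, 2 wild-type and 2 cisplatin-resistant, grouped by their titles. The kit, per the labels' protocols, selects poly(A) RNA and keeps strand. The authors deposited whole-number read counts per gene. STAR 2.5.1a, HTSeq, DESeq and build GRCh38.p7 are named per the submitters' processing notes, but neither the annotation nor any counting setting is recorded in them. A second deposited table divides these counts by 1 factor per library and was not used.

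Counts were fitted over the whole table in R 4.3.3 by the quasi-likelihood test of edgeR 4.0.16, using TMM factors, a model of group alone and filterByExpr defaults (minimum count 10, minimum total 15). All p-values were Benjamini-Hochberg adjusted over 18602 genes. The SE is the log2 fold change divided by the square root of F. Alternatives were RLE factors, library totals, DESeq2 1.42.0, other filters, a replicate block and leaving out each library. Positions, merged exon lengths and overlaps come from GENCODE release 29 (GRCh38). An exonic base counts as inside another gene if it lies in that gene's whole span, introns included, on either strand. Fits were also run on simulated counts with far fewer changed genes than were called here and the same dispersion for every gene. These settings differ from the data, so that run does not measure error rates here. Replicates differed beyond sampling noise (chi-square over degrees of freedom 13.8 and 36.7). The labels call them biological replicates without naming separate cultures, so p-values measure the spread between these samples. Members and lists were chosen with earlier results of these data known. All members were named, with the up to 4 called genes of largest change per list (at least 1 CPM in the higher group), 7 preset genes and the up to 3 called neighbours of largest change per member described for its place. Other genes that the text names, such as FN1, JUN, JUND, VWF, PTPRC, ERBB2 and KRT8, were chosen after their values were seen. Another 2 genes are not reported here and are left out of the list counts and plots. Python 3.11.15, pandas 2.3.3 and matplotlib 3.10.9 made tables and figures.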

Additional observations from a re-analysis of the deposited data

How the results depend on the processing

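The count of members called higher was 4 and of members called lower 0 under RLE factors, library totals, DESeq2, both other filters and the replicate block. Leaving out each library gave 3 to 4 called higher and 0 lower. PLAU was not tested where 1 CPM in 2 libraries was required. PLAT had a log2 fold change from 0.42 to 0.65 over the left-out libraries. SERPINF1, not called, was at 0.039 with library totals alone and between -0.14 and 0.051 over the left-out libraries, so its sign is not set. PLAUR, SERPINB5 and SERPINE2 kept direction and call in all 10 alternatives, with log2 fold changes of 1.11 to 1.26, 2.53 to 2.71 and 0.50 to 0.60. Over all genes, 3330 to 4942 were called higher and 3417 to 4879 lower across the alternatives. Library totals alone shifted the median of all genes to 0.098. With the replicate number as a block PLAUR had 1.17, SERPINB5 2.61, PLAT 0.53 and SERPINE2 0.50, and 4767 genes were called higher and 4879 lower. The labels give same-numbered libraries only a shared number. Their deviations correlated at 0.08 across genes, which are not independent replicates, so this value cannot show whether they shared a batch. The median around SERPINB5 changed sign, to -0.0033, with neighbours within 1000 kb, a distance chosen after seeing the data, and the cause was not tested. At the depth of these libraries PLAU, PLG, ST14, SERPINA12, VWF and PTPRC are among the named genes with fewer than 50 reads in every library.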

Other observations

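Of 9 protein-coding clade A serpin genes on chromosome 14, 5 were tested and 4 of them fell, and SERPINA10 (-0.83 ± 0.71, edgeR adjusted p = 0.368) was not called. The 3 listed at 0, SERPINA3, SERPINA4 and SERPINA11, lie wholly or for 85.0% of their exonic bases within other genes. Besides SERPINA1, the corticosteroid-binding globulin gene SERPINA6 fell by 2.18 ± 0.45, from 1.94 ± 0.512 to 0.431 ± 0.218 CPM, and SERPINA5 fell by 1.42 ± 0.39. The log2 fold change of SERPINA6 was -2.79 without resistant replicate 1 and -1.71 without resistant replicate 2. SERPINA12, named after its values were seen, went from 73 reads in wild-type cells to 0 in resistant cells, at least 38.8-fold lower with a floor of 3 counts over the group.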
